A study of Mus musculus with 4 samples.

Results

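Axon guidance ligands and receptors were examined in single cells sorted from the mouse forebrain. The members were all genes of the count matrices whose symbol begins with *Sema* and a digit, *Plxn*, *Efna*, *Efnb*, *Epha*, *Ephb*, *Robo* or *Unc5*, together with *Slit1* to *Slit3*, *Nrp1*, *Nrp2*, *Dcc*, *Ntn1*, *Ntn3* and *Ntn4*. This selection held 73 of 32285 genes, of which 68 belong to the guidance families. The other 5 match by their symbol but are not guidance ligands or receptors: *Unc50*, *Unc5cl* and the opposite-strand transcripts *Plxna4os1*, *Plxna4os2* and *Plxna4os3*.

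The libraries were prepared from tdTomato-positive cells of C57BL/6 mice at postnatal day 5, after tamoxifen had been given to the dams at the midfetal stage. Both genotypes carried Nestin-CreERT2 and the Rosa26-tdTomato reporter, so that Cre activity in Nestin-expressing neural progenitors and their descendants turned on the reporter. Control mice were Chd8+/+ and mutant mice were Chd8+/F, with 1 *Chd8* allele flanked in part by loxP sites and removed by the same Cre. There were 2 libraries per genotype, each from an input of 5000 cells pooled from 3 mice, so differences among the mice of a library cannot be seen. *Chd8*, which encodes a chromatin remodeler, was found at 61.7, 68.7, 89.8 and 94.9 CPM in control replicate 1, mutant replicate 1, control replicate 2 and mutant replicate 2 (CPM is the share of a gene in the UMIs of a library or class, scaled to counts per 1e6, where a UMI is a tag that marks 1 captured transcript molecule). Counts from the 3′ end of transcripts do not tell the intact from the recombined allele, so these levels do not check the genotype.

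Guidance cues are secreted or membrane-bound proteins that attract or repel growing axons and migrating cells. Semaphorins signal through plexins, with neuropilins as coreceptors for most secreted class 3 semaphorins, and ephrins bind Eph receptor tyrosine kinases on neighbouring cells. Slits repel through Robo receptors, and netrins attract through Dcc and repel through Unc5 receptors. In the forebrain, these pairs guide commissural axons, the migration of interneurons and the positioning of neuroblasts, and they also act on oligodendrocyte precursors and blood vessels.

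After filtering, 17623 cells remained, with 2973 to 5710 cells per library and a median of 11497 to 11837 UMIs per cell. Pairs of libraries shared 8 to 21 cell barcodes. Clustering was performed without the 73 genes, and each cluster was given a name only from cell type markers, so every name below means cells resembling that type. The label of the samples calls them neuronal cells, but 4173 cells were astrocyte-like, 2442 resembled oligodendrocyte precursor cells (OPCs), 362 were microglia-like and 570 were pericyte-like or mural-like. In the astrocyte class *Aqp4* reached 1519 CPM against a median of 20.7 CPM in the other classes, and *Cx3cr1* reached 1510 CPM in the microglia class against a median of 2.89 CPM. A cluster of 981 cells led by *Veph1* and *Plagl1* remained unnamed. In all, 14 classes (the unnamed cluster included) had at least 20 cells in every library. Differences between classes are descriptions without a test, because the classes are clusters of the same cells.

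The libraries stood apart by replicate. The matrix headers named Cell Ranger 7.0.0 for replicate 1 and 5.0.1 for replicate 2, and *Xist* stood at 0.149 (control) and 0.153 CPM (mutant) in replicate 1 against 1633 and 1749 CPM in replicate 2. *Xist* is transcribed from the inactive X chromosome of female cells, whereas the study states that male mice were used, and the libraries of replicate 2 go against that. The software version, the difference in *Xist* and anything else that separated the replicates cannot be told apart. The guidance genes were drawn unequally into this difference. Among genes with at least 20 UMIs in every library, the introns of members were long. Their median was 62731 intronic bases per gene, against 18336 over all such genes. Across the 65 members with at least 20 UMIs in every library, the Spearman correlation between intronic length and the log2 ratio of replicate 2 over replicate 1 was -0.758 in the controls and -0.798 in the mutants. Over all 15696 such genes it was -0.458 and -0.526. The members as a set were not clearly shifted. Their median log2 ratio was -0.282 in the controls and 0.0675 in the mutants, against 0.0478 and 0.0783 over all such genes. These correlations are across genes, which share the libraries and are not independent. For example, *Dcc* (1084265 intronic bases) was lower in replicate 2 by a log2 difference of -3.73 in the controls and -4.00 in the mutants, whereas *Plxnb1* (14937 intronic bases) was higher by 1.22 and 1.19. *Unc5b* was higher still, by 1.55 and 1.48, with an intronic length at the median of the 65 members. These ratios are over all cells, and the numbers of cells per class also differed between the replicates. Pericytes and mural cells, in which *Unc5b* was highest among the 14 classes, numbered 35 (control) and 82 (mutant) in replicate 1 but 194 and 259 in replicate 2. Inhibitory neurons numbered 1269 and 1087 in replicate 1 but 281 and 266 in replicate 2. The part of cell numbers in the ratios was not tested. A low level of a long gene in replicate 2 therefore cannot be told apart from this difference between the replicates. The highest and the next class of a member were taken from the counts of all 4 libraries added up, so they still carry this difference. That order was therefore checked within each library, and genotypes are given within each replicate beside the test over all 4 libraries.

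**Figure D1:**
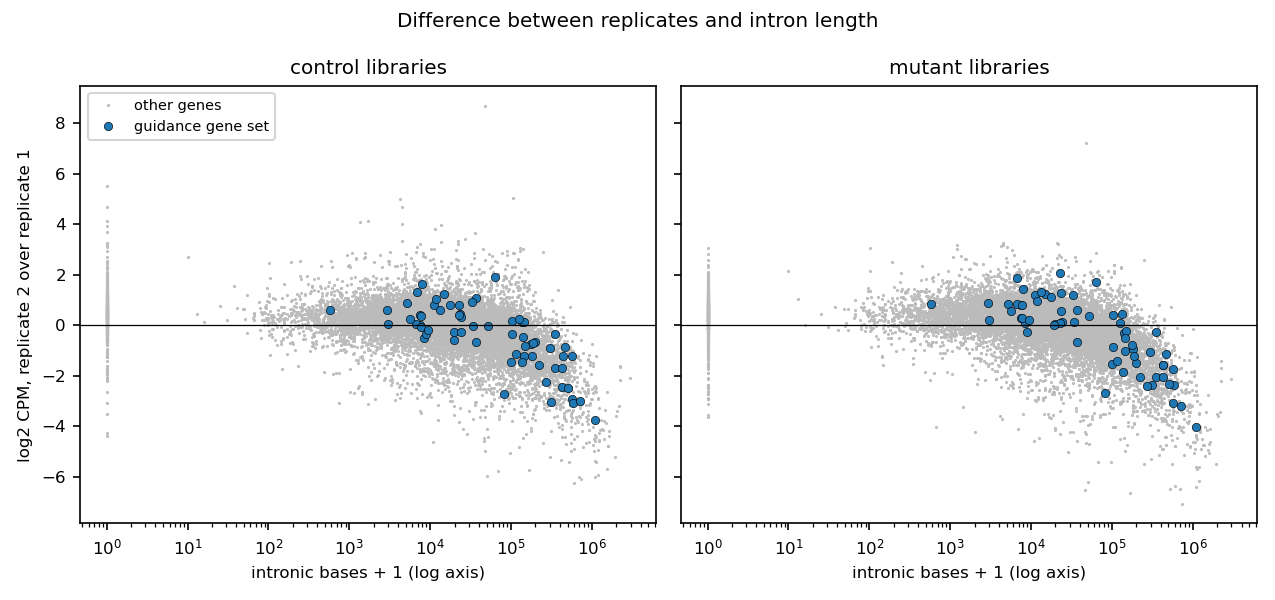
Difference in level between the replicates against intronic length. Each point is 1 gene with at least 20 UMIs in every library, the x axis gives intronic bases plus 1 on a log axis, and the y axis gives the log2 ratio of CPM of replicate 2 over replicate 1 over all cells of the control (left) or mutant (right) libraries. Blue points are the 65 members of the selection (*Unc50* and *Unc5cl* included), which fall with intronic length to below -3 at the right, and gray points are the other genes.

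A member was taken as measured across classes where its highest class held at least 20 UMIs of it in every library, which was the case for 49 of 73 members (67.1%). The class with the highest level was the same in all 4 libraries for 30 of the 49 (61.2%), and 53.9% of the 11528 genes measured in the same way had that property. For 12 of the 49 (24.5%), the lowest of the 4 library values in the highest class lay above the highest of the 4 values in the class that came next over all cells, against 32% of the same genes. Both shares lay within 10 percentage points of those over all genes. Of the 30 members, 10 were highest in excitatory neurons, 6 in inhibitory neurons, 4 in astrocytes, 3 in the unnamed cluster (*Unc50* included), 2 in oligodendrocytes, 2 in ependymal cells (*Unc5cl* included), and 1 each in excitatory precursors, OPCs and microglia. How all measured genes spread over the classes was not counted, so these counts show no trait particular to the members.

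**Figure D2:**
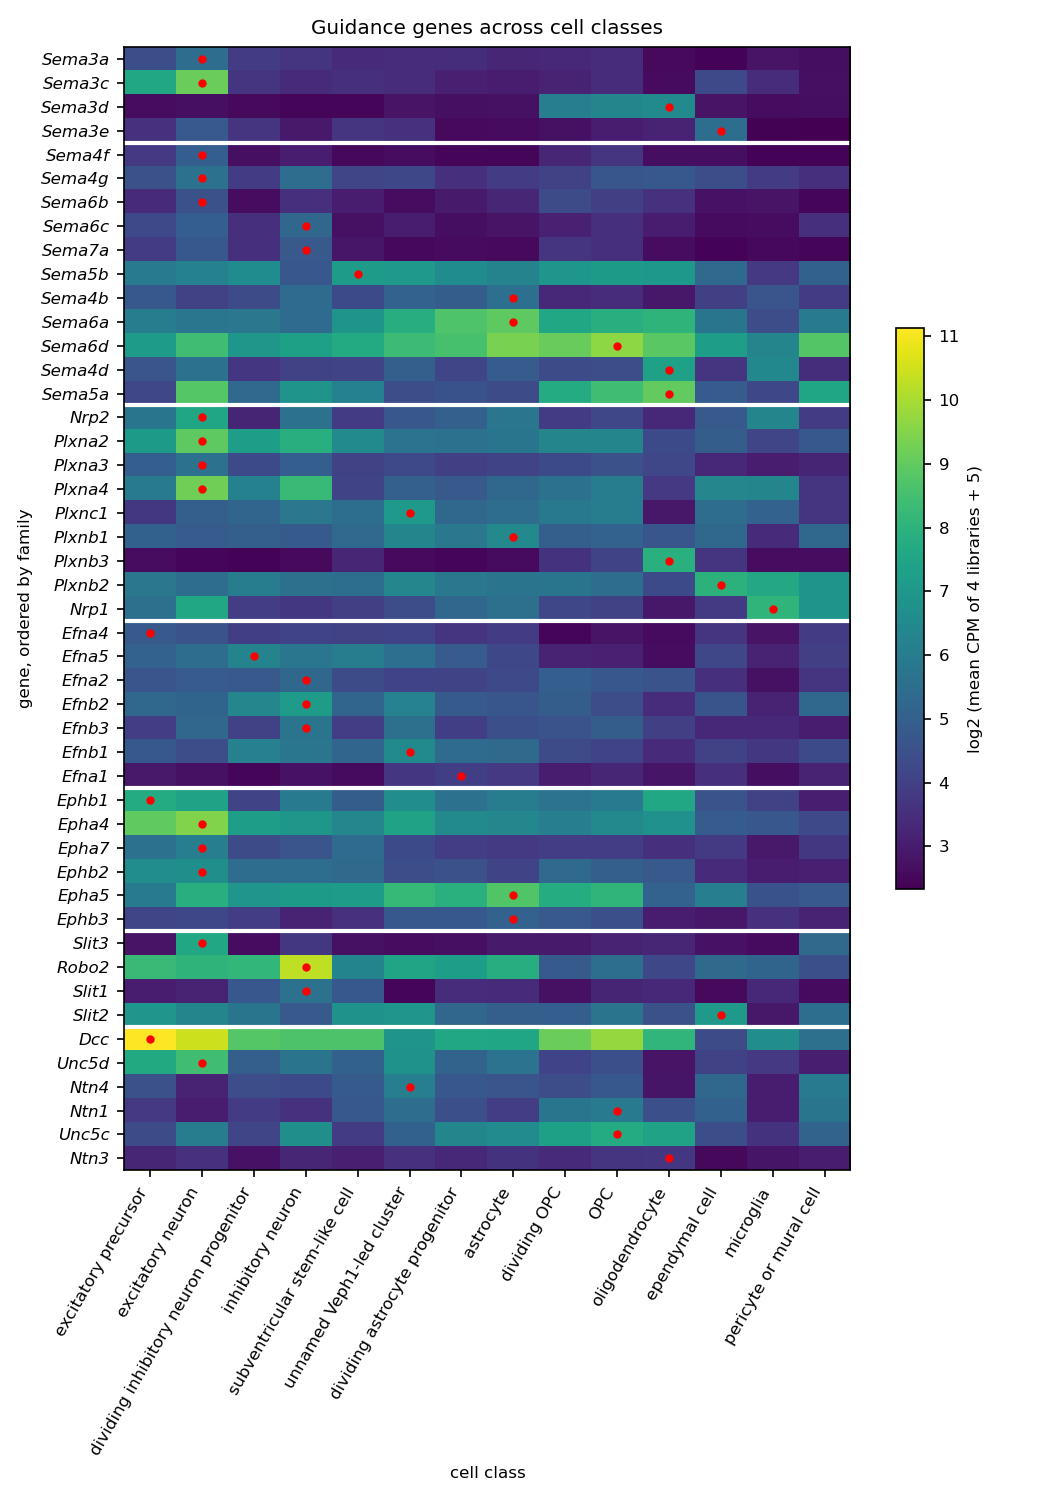
Levels of the measured guidance genes in 14 cell classes. Color gives log2 of the mean CPM of the 4 libraries plus 5, with genes (rows) grouped by family between the white lines and cell classes in columns, and a red dot marks the class with the highest mean. Among the genes placed the same in every library, *Sema3c*, *Plxna2* and *Slit3* are highest in excitatory neurons, *Robo2* in inhibitory neurons and *Plxnb3* in oligodendrocytes.

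Among the class 3 semaphorins, which are secreted, 4 of 7 members were measured and 3 kept 1 highest class. *Sema3c* was found in excitatory neurons at 570.6 CPM in the first control, 631.6 in the first mutant, 512.3 in the second control and 547.2 in the second mutant library. Excitatory precursors followed at 172.2, 152.9, 157.3 and 261.1 CPM in the same order of libraries, an order used for all values below. All 4 excitatory neuron values lay above all 4 precursor values, and in the third class, ependymal cells, the level was 9.31 to 19.3 CPM. *Sema3a*, a repellent of cortical axons, was highest in excitatory neurons at 48.0, 67.5, 19.9 and 21.4 CPM, with excitatory precursors at 29.0, 15.1, 9.94 and 12.1 CPM. *Sema3e*, the ligand of plexin D1, was highest in ependymal cells at 51.2, 59.1, 28.9 and 21.2 CPM, above excitatory neurons at 34.4, 32.8, 11.0 and 10.7 CPM. For both genes the order held within each library, but the ranges of the neighbouring classes overlapped across libraries. *Sema3d*, the remaining measured member, was highest in oligodendrocytes in 3 libraries and was exceeded by OPCs in mutant replicate 2 (52.0 against 53.3 CPM).

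Of the 13 other semaphorins, most of which are anchored in the membrane, 11 were measured and 4 kept 1 highest class. *Sema4d*, which acts through plexin B receptors, was highest in oligodendrocytes at 176.0, 215.9, 104.0 and 141.0 CPM. Microglia followed at 91.8, 87.4, 95.2 and 54.0 CPM, so the classes did not overlap, although the margin in control replicate 2 was small. *Sema6a*, a transmembrane ligand of plexin A2 and A4, was highest in astrocytes at 485.0, 499.3, 489.4 and 495.5 CPM. The level was nearly the same in the 4 libraries, and dividing astrocyte progenitors lay below it at 386.1 to 439.7 CPM. *Sema4f* was highest in excitatory neurons at 15.6, 21.7, 34.9 and 31.3 CPM, above precursors at 5.82 to 12.6 CPM. *Sema6c* reached 17.3, 18.8, 41.9 and 53.7 CPM in inhibitory neurons and 17.1, 17.5, 30.9 and 39.6 CPM in excitatory neurons, which overlapped across libraries. *Sema6d* and *Sema5a* changed places between libraries. *Sema6d* was highest in OPCs in replicate 1 (1292 and 1410 CPM) but in pericytes and mural cells in replicate 2 (470.2 and 528.4 CPM against 262.9 and 191.2 CPM in OPCs), and *Sema5a* was counted in oligodendrocytes at 687.4, 686.6, 386.6 and 299.5 CPM and in excitatory neurons at 550.0, 571.4, 321.9 and 350.2 CPM.

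The plexins and neuropilins, the receptors of the semaphorins, kept their place most often, in 8 of 9 measured members out of 11. *Plxnb3*, a plexin of the oligodendrocyte lineage, was counted in oligodendrocytes at 183.1, 197.8, 226.3 and 349.8 CPM. In OPCs it was counted at 10.6, 8.46, 14.4 and 16.1 CPM, and the median of the classes other than oligodendrocytes was 0.936 CPM over all cells. The oligodendrocyte class was led by *Mbp* and *Mag* but also by *Enpp6*, *Bcas1* and *Bmp4*, genes of newly formed oligodendrocytes. Its name depends on the clustering, since its best score was for committed OPCs and 535 of its 570 cells were named committed OPCs at a cluster resolution of 2. *Nrp1*, the coreceptor for *Sema3a*, was highest in microglia at 260.0, 305.9, 263.5 and 240.4 CPM, above excitatory neurons at 188.5, 210.8, 156.5 and 201.9 CPM. The microglia cluster was also led by *Pf4* and *Mrc1*, markers of border macrophages. *Nrp2*, a coreceptor for *Sema3f*, was highest in excitatory neurons at 150.4, 157.0, 210.3 and 194.5 CPM, above microglia at 58.9 to 111.1 CPM. *Plxna2* was highest in excitatory neurons at 533.0, 576.3, 370.7 and 465.6 CPM, with inhibitory neurons at 284.8, 279.6, 152.5 and 205.1 CPM and no overlap. *Plxna4* was also highest in excitatory neurons, at 923.9, 884.7, 248.2 and 331.3 CPM, with inhibitory neurons at 462.8, 451.5, 136.2 and 160.4 CPM. For *Plxna4* the neurons of replicate 2 lay below the inhibitory neurons of replicate 1, so the ranges overlapped while the order within each library did not change.

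**Figure D3:**
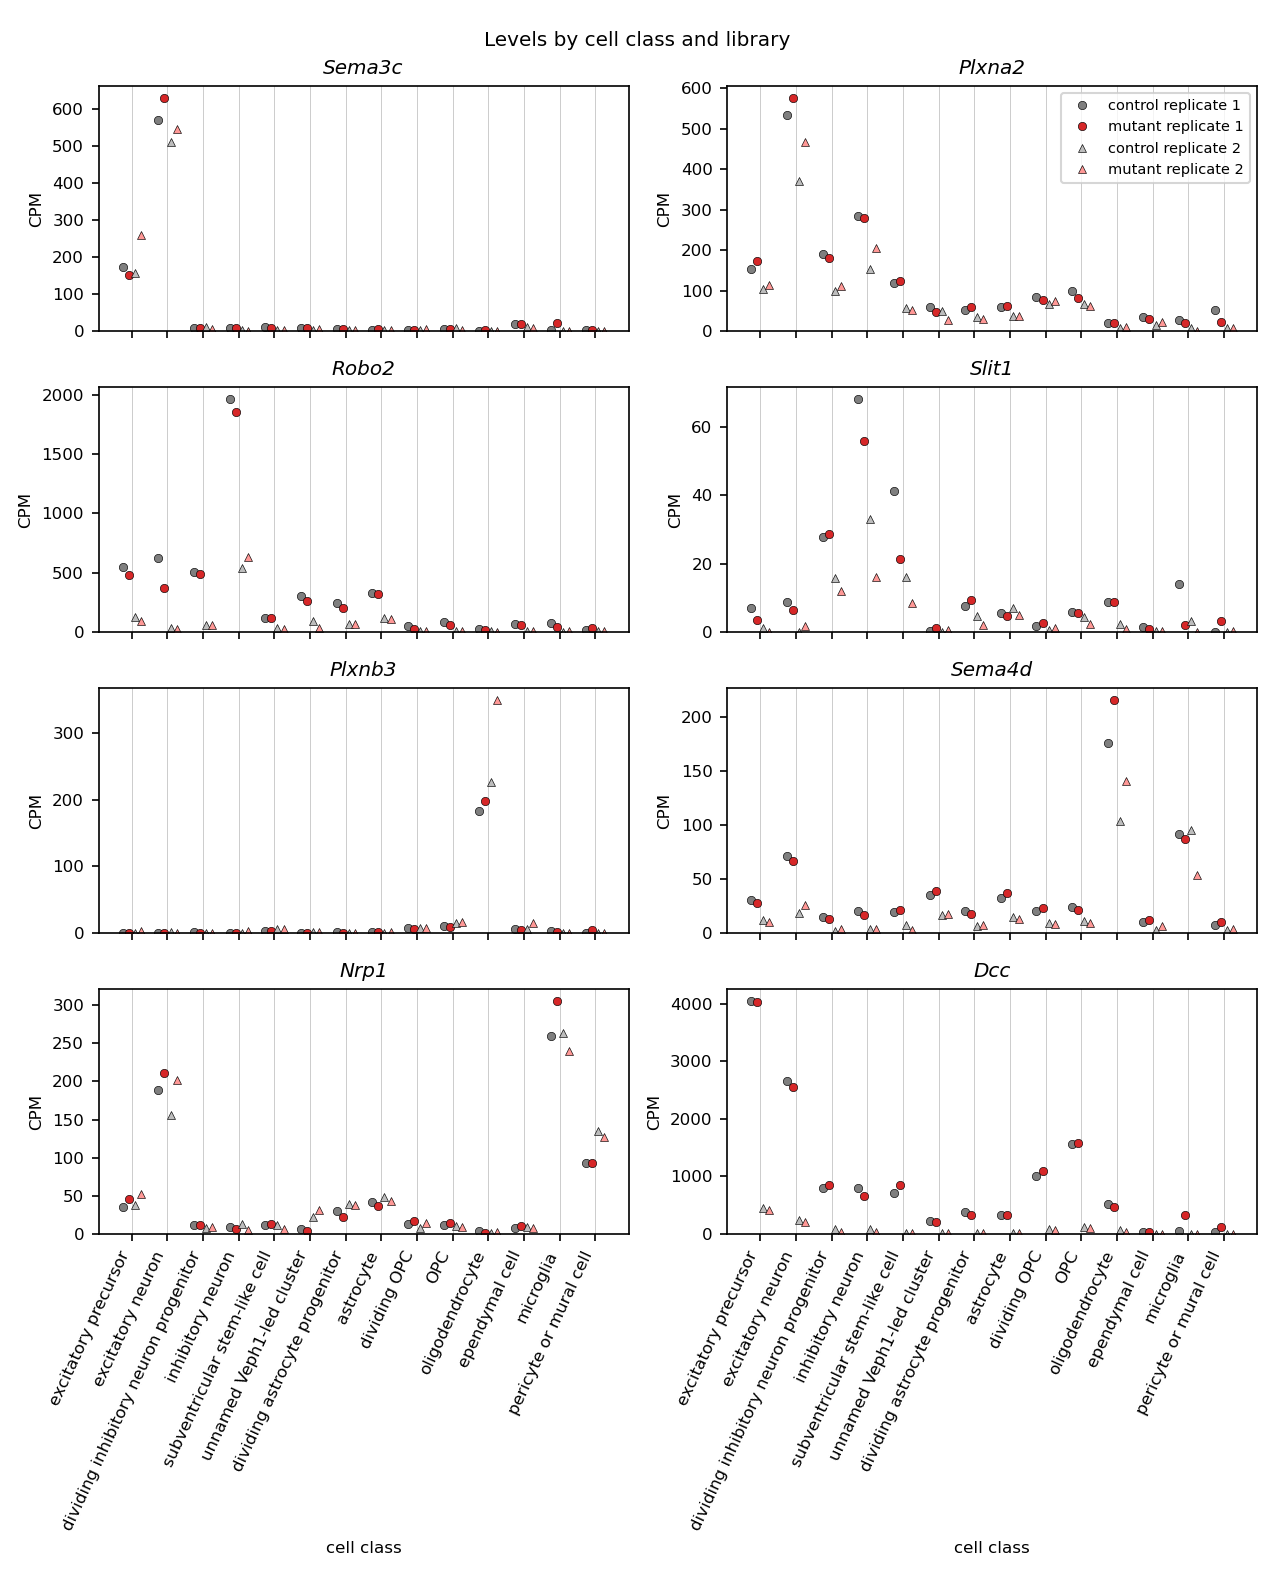
Levels of 8 guidance genes by cell class and library. Each panel is 1 gene, the x axis lists the 14 cell classes and the y axis gives CPM, with circles for replicate 1, triangles for replicate 2, gray for control and red for mutant. *Plxnb3* is near 0 outside oligodendrocytes, *Nrp1* is highest in microglia, and *Robo2* and *Dcc* are lower in both libraries of replicate 2 in every class shown with a high level.

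Promoter windows are printed for *Sema3c* and *Slit3*, which were both among the leading genes of 1 excitatory cluster described below, and for *Plxnb3*, the oligodendrocyte member with the largest ratio to the median of the other classes. Each window runs from 250 bases before to 50 bases after the annotated start in RefSeq (build GRCm38.p6), at chr5:17574566-17574865, chr11:35121206-35121505 and chrX:73756853-73757152, all on the plus strand. The capitals mark CAGATG, an E-box bound by NeuroD factors, and ACAAAG, a Sox motif, with CATCTG and CTTTGT as their reverse complements on the plus strand.
Sema3c: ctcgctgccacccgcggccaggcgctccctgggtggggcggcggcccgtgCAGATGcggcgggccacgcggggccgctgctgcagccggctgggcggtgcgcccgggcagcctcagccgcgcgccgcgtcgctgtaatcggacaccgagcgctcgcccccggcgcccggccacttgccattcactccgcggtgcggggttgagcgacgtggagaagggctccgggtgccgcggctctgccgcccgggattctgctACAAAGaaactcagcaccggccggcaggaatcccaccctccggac
Slit3: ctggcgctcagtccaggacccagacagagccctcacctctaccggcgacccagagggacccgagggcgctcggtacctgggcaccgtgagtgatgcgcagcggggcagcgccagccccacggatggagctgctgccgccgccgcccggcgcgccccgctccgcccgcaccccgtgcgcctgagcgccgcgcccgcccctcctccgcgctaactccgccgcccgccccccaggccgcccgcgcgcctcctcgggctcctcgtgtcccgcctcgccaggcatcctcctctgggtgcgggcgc
Plxnb3: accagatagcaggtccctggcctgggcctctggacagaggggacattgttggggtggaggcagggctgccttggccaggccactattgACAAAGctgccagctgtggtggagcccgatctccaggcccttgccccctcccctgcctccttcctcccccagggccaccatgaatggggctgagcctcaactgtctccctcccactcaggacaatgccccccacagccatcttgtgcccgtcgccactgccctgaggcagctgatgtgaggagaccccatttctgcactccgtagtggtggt
The *Sema3c* window held 1 CAGATG and 1 ACAAAG, the *Plxnb3* window held 1 ACAAAG, and the *Slit3* window held neither. Of the 32851 promoter windows in the table, 17.2% held the E-box and 18.7% the Sox motif on either strand. A match in letters is not a bound site. GC content was 75.7% for *Sema3c*, 78.3% for *Slit3* and 63.7% for *Plxnb3*, and 60 of the 73 members had a window.

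Of 8 ephrins, 7 were measured and 4 kept 1 highest class. *Efnb2*, a transmembrane ephrin, was highest in inhibitory neurons at 140.4, 137.5, 125.0 and 148.5 CPM. Their dividing progenitors followed at 88.7, 87.7, 71.7 and 72.3 CPM, without overlap. *Efnb1* was highest in the unnamed *Veph1*-led cluster at 95.5, 100.1, 76.5 and 83.2 CPM, and the dividing inhibitory progenitors reached 59.6 to 78.2 CPM. *Efnb3* in inhibitory neurons was counted at 25.9, 29.7, 56.2 and 76.9 CPM and in the unnamed cluster at 21.2, 25.2, 51.8 and 74.2 CPM, so the neighbours were close within every library. *Efna2*, a GPI-anchored ephrin, was also highest in inhibitory neurons in every library, with 29.7, 29.6, 33.7 and 42.3 CPM against 23.5, 25.9, 20.7 and 34.9 CPM in dividing OPCs, although the ranges over libraries overlapped.

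Of 14 Eph receptors, 6 were measured, 4 kept 1 highest class, and none was apart from its neighbour across libraries. *Epha4*, a receptor for ephrins of both classes, was highest in excitatory neurons at 531.5, 701.0, 828.2 and 735.9 CPM. Excitatory precursors followed at 446.3, 428.1, 484.0 and 668.0 CPM. *Epha7*, a receptor for class A ephrins, was higher in excitatory neurons (87.3, 74.0, 44.9 and 47.0 CPM) than in precursors (64.6, 62.1, 29.8 and 23.0 CPM) in each library. Among the 14 classes, these 2 receptors were thus highest in excitatory neurons, whereas the next 2 were highest in astrocytes. *Epha5* was counted in astrocytes at 443.7, 466.5, 370.6 and 402.0 CPM, against 385.8, 369.6, 227.1 and 194.1 CPM in the unnamed cluster. *Ephb3* was counted in astrocytes at 20.7, 22.8, 34.6 and 37.7 CPM. Dividing astrocyte progenitors came next over all cells, at 15.3, 13.9, 30.1 and 29.2 CPM. Dividing OPCs were close to them, at 16.4, 16.8, 31.0 and 26.4 CPM. The astrocyte class is made of clusters that divided by replicate, with 1 of them drawn to 99.7% from replicate 1.

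Of the 7 Slit and Robo members, 4 were measured and 3 kept 1 highest class. *Robo2*, a Slit receptor, was highest in inhibitory neurons at 1965, 1857, 540.5 and 629.7 CPM. Their dividing progenitors, next over all cells, were at 503.1, 487.4, 61.9 and 56.6 CPM, below every value of inhibitory neurons, whereas excitatory neurons of control replicate 1 (624.0 CPM) and excitatory precursors of control replicate 1 (546.2 CPM) exceeded the lowest inhibitory value of replicate 2. *Slit1*, one of the ligands, was also highest in inhibitory neurons, at 68.1, 55.7, 33.1 and 16.1 CPM. Their dividing progenitors (27.7, 28.5, 15.8 and 11.9 CPM) and subventricular stem-like cells (41.1, 21.3, 16.0 and 8.40 CPM) came next. *Slit3* was highest in excitatory neurons at 297.4, 355.3, 45.8 and 68.4 CPM, above pericytes and mural cells at 83.7, 39.2, 14.5 and 6.26 CPM. *Slit2* had no fixed place: excitatory precursors were highest in replicate 1 (184.7 and 212.7 CPM), and in replicate 2 the unnamed cluster lay above them (174.1 and 146.3 CPM against 45.0 and 32.1 CPM). *Robo1* did not reach 20 UMIs in every library of its highest class, excitatory neurons, where it was counted at 801.7, 553.5, 30.9 and 14.8 CPM.

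Of the 8 netrins, Dcc and Unc5 receptors, 6 were measured and 2 kept 1 highest class. *Dcc*, the receptor for attraction to netrin, was highest in excitatory precursors at 4054, 4037, 457.1 and 420.1 CPM, followed by excitatory neurons at 2660, 2557, 236.2 and 202.7 CPM. The order of these classes was the same in each library, although the values of replicate 2 were much lower throughout. *Unc5c*, a netrin receptor for repulsion, was highest in OPCs at 267.7, 350.9, 113.4 and 99.97 CPM, with oligodendrocytes at 204.2, 328.3, 67.3 and 57.3 CPM. *Unc5d* was highest in excitatory neurons in replicate 1 (718.3 and 581.3 CPM) but lay below excitatory precursors in replicate 2 (24.9 and 25.6 against 38.0 and 39.0 CPM). Among the ligands, *Ntn1* was counted in OPCs at 85.7, 83.3, 24.2 and 26.6 CPM, and *Ntn4*, a netrin of basement membranes, in the unnamed cluster at 87.6, 88.6, 45.3 and 30.5 CPM.

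The 24 members that were not measured in this way included genes of endothelial cells, which numbered 10, 62, 26 and 68 and were too few in control replicate 1. *Robo4*, an endothelial member of the Robo family, was counted in them at 169.3, 76.98, 123.9 and 127.2 CPM on 35 to 114 UMIs. *Plxnd1*, the receptor for *Sema3e*, was counted at 285.4, 138.4, 199.1 and 182.9 CPM, and *Ephb4*, a receptor of veins, at 77.4, 34.3, 26.6 and 35.7 CPM. In these cells *Nrp1* stood at 237.0, 284.0, 296.5 and 257.7 CPM, a range that overlapped with that of microglia. *Unc5b*, a netrin receptor of vessels, was counted in pericytes and mural cells at 11.95, 62.8, 80.2 and 104.3 CPM, the first on 5 UMIs, too few for the order of classes. In the fibroblast-like cells, which numbered 18 to 32 per library, *Epha7* was counted at 194.0, 89.4, 142.4 and 106.3 CPM and *Efnb1* at 171.2, 129.4, 142.4 and 141.8 CPM. Counted over every class without a minimum of cells, 8 members were highest in endothelial cells and 8 in fibroblasts. Those in fibroblasts included *Sema3a*, at 162.0 CPM over all cells against 46.95 CPM in excitatory neurons. They also included *Efnb3*, at 43.3 CPM against 34.1 CPM in inhibitory neurons. *Epha7* was at 137.3 CPM in fibroblasts against 73.07 CPM in excitatory neurons, and *Efnb1* at 148.7 CPM against 92.38 CPM in the unnamed cluster.

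The excitatory neuron class held clusters that differed in guidance receptors. Cluster 2 was led by *Neurod1*, *Calb2* and *Prox1* as well as by *Slit3* and *Sema3c*, and cluster 3 by *Neurod6*, *Rbfox1* and *Unc5d*. Cluster 3 had 189 and 80 cells in replicate 1 but only 13 and 11 in replicate 2, so its levels are given for replicate 1, control first. *Robo1* was counted at 1580 and 1796 CPM in cluster 3 and at 214.4 and 148.6 CPM in cluster 2. *Unc5d* was counted at 1537 and 2066 CPM in cluster 3 and at 100.7 and 97.5 CPM in cluster 2, and *Epha3*, an ephrin A receptor, at 591.0 and 733.7 CPM against 40.8 and 70.3 CPM. *Robo2* (1317 and 1332 against 101.1 and 57.6 CPM) and *Epha5* (922.4 and 1086 against 44.7 and 85.4 CPM) were placed alike. The opposite order was found for *Slit3*, with 484.0 and 450.3 CPM in cluster 2 and 50.1 and 63.6 CPM in cluster 3, and for *Nrp2*, with 206.2 and 198.1 against 76.5 and 31.0 CPM. These genes were chosen after their values were seen.

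The inhibitory neuron class was likewise made of 5 clusters, of which clusters 4 and 16 came mostly from replicate 1 and cluster 6 from replicate 2. *Robo2* in cluster 16, led by *Prokr2* and *Adarb2*, reached 2921 CPM (control) and 2690 CPM (mutant) in replicate 1. Cluster 17, led by *Epha6*, *Foxp2* and *Bcl11b*, was at 1342 and 940.6 CPM. *Robo1* had the opposite order, with 2814 and 2161 CPM in cluster 17 against 154.8 and 159.1 CPM in cluster 16. *Dcc* was counted at 2396 and 1883 CPM in cluster 17 and at 141.4 and 196.7 CPM in cluster 16. In replicate 2, cluster 17 (32 and 27 cells) was set beside cluster 6, which had 0 and 1 cells in replicate 1. Cluster 17 lay above cluster 6 for *Robo1*, at 202.0 and 135.5 CPM against 18.2 and 12.4 CPM. The same held for *Dcc*, at 236.7 and 149.6 CPM against 50.4 and 25.6 CPM. *Robo2* was lower in cluster 17 than in cluster 6, at 161.6 and 252.4 CPM against 678.1 and 735.4 CPM. These genes too were chosen after their values were seen.

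Genotypes were first compared by edgeR's quasi-likelihood test on the counts summed per class and library. None of the 661 pairs of a member and a class passed the threshold of an adjusted p of 0.05 (Benjamini-Hochberg over all genes of the class), as was true of all 165994 pairs of genes and classes (0%). At an unadjusted p under 0.05 in edgeR's test there was 1 member pair of 661, against 216 of the 165994 pairs of all genes. DESeq2 called no member pair. With 2 libraries per genotype that differ by replicate, the spread within a genotype contains the whole difference between the replicates. The lack of calls by this test therefore does not show that the genotypes were alike.

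Within replicates, 385 pairs of a member and a class had at least 20 UMIs in every library. In 196 of them (50.9%) the mutant differed from the control in the same direction in both replicates. By class, this share ran from 33.3% (ependymal cells) to 64.5% (the unnamed cluster). Over all genes it ran from 45.9% (OPCs) to 51.7% (oligodendrocytes). A difference of at least 0.5 on the log2 (CPM + 5) scale in the same direction in both replicates was found for 1 pair, against 0.206% of the 108971 pairs of all genes. A share near that over all genes is no result about the members. That pair was *Ntn4* in pericytes and mural cells, a class in which 74 of 3990 genes (1.85%) met the same rule, out of 225 in all classes. Its level went from 136.2 CPM (57 UMIs) in the control to 34.7 CPM (31 UMIs) in the mutant of replicate 1, and from 38.2 CPM (79 UMIs) to 16.3 CPM (47 UMIs) in replicate 2. The mutant was lower in both replicates and the genotypes did not overlap, although the mutant of replicate 1 lay close to the control of replicate 2. The ratio of mutant to control was 0.255 in replicate 1 (exact 95% interval given the summed UMIs, 0.159 to 0.402) and 0.428 in replicate 2 (0.292 to 0.622), where the intervals cover counting error only. With a mitochondrial limit of 5%, the levels of replicate 2 were 101.1 and 22.5 CPM (42 and 25 UMIs) and its ratio was 0.222, while that of replicate 1 was 0.199. The log2 change over all libraries was -1.71 with an SE of 0.67 and an adjusted p of 1 by edgeR's test, and -1.56 with an adjusted p of 0.568 with the replicate block, so the difference did not pass the test. Control replicate 1 contributed only 35 pericytes and mural cells, and the class was made of cluster 31 (30 and 69 cells) and cluster 30 (5 and 13 cells) in replicate 1 but of cluster 30 alone (194 and 259 cells) in replicate 2. Within cluster 31, *Ntn4* stood at 152.7 CPM in the control and 37.8 CPM in the mutant. The summed level of 10 astrocyte markers in the class was 1057, 308, 442 and 406 CPM, highest in the control library of replicate 1, and that of 8 endothelial markers was 320 to 386 CPM. Their part in the result was not tested.

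**Figure D4:**
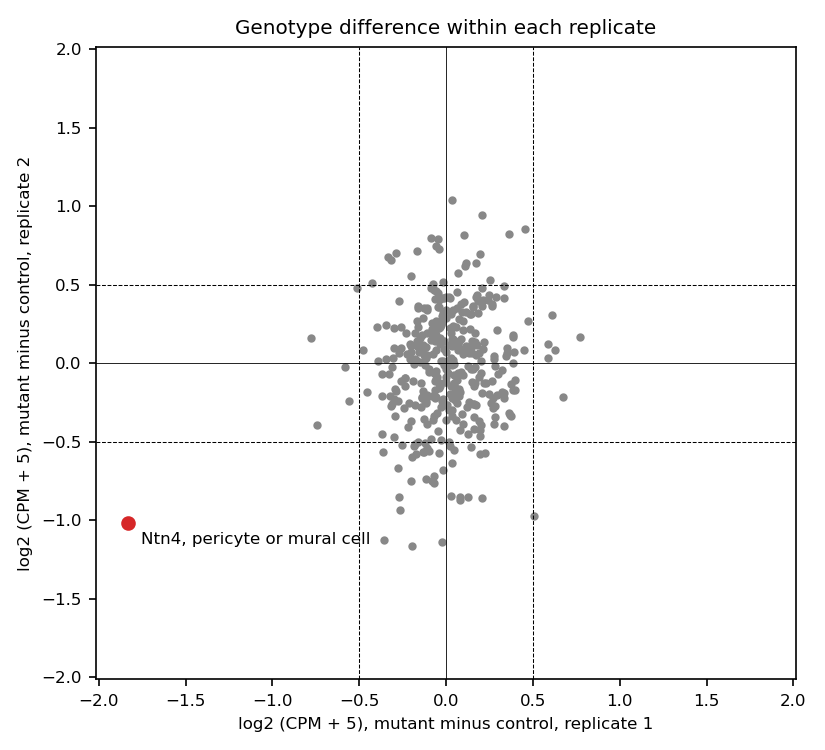
Genotype differences of the members within each replicate. Each point is 1 of 385 pairs of a member (*Unc50* and *Unc5cl* included) and a cell class. The x axis gives the difference of log2 (CPM + 5), mutant minus control, in replicate 1 and the y axis the same in replicate 2. Dashed lines mark 0.5 in either direction. The red point, *Ntn4* in pericytes and mural cells at -1.83 and -1.02, is the only pair beyond the lines in the same direction in both.

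With the replicate number as a block, 4 of 661 member pairs passed an adjusted p of 0.05 in edgeR's test, against 107 of 165994 pairs of all genes (0.0645%). In excitatory neurons the pair was *Unc5c*, where 0.243% of 11115 genes were called. Its levels were 154.9 and 69.4 CPM in the control and the mutant of replicate 1, and 11.96 and 13.2 CPM in those of replicate 2. The mutant was lower in replicate 1 and slightly higher in replicate 2. The log2 change was -0.92 with an SE of 0.23 and an adjusted p of 0.0286, and -0.997 with an SE of 1.32 and an adjusted p of 1 without the block. Cluster 3, in which *Unc5c* was counted at 294.0 and 166.0 CPM in replicate 1 (49.9 and 37.9 CPM in cluster 2), made up 45.4% of the class in control replicate 1 and 29.1% in mutant replicate 1, and 12.4% and 9.65% in replicate 2. The part of this difference in cluster shares was not tested.

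The other pairs were in microglia, where 0.393% of 7890 genes were called under the replicate block. *Dcc* stood at 45.2 CPM (126 UMIs) in the control and 335.4 CPM (307 UMIs) in the mutant of replicate 1, and at 0 in both libraries of replicate 2, so the call rests on replicate 1 alone (adjusted p = 1.61e-09). *Sema6d* was counted at 55.6, 195.5, 31.7 and 22.1 CPM (adjusted p = 0.0288), with the mutant higher in replicate 1 and lower in replicate 2. *Robo1* was counted at 67.1, 20.8, 12.7 and 0 CPM (adjusted p = 0.0377), with the mutant lower in both replicates but with only 4 UMIs in control replicate 2. Without the block, the adjusted p of these pairs was 1. The libraries of replicate 1 also differed in some, but not all, of the marker lists of other cells in this class. The summed level of 9 OPC markers in microglia was 182, 491, 168 and 218 CPM, that of 9 pericyte markers 6.81, 262, 200 and 17.2 CPM, that of 8 excitatory neuron markers 16.9, 40.4, 6.35 and 0 CPM, and that of 9 inhibitory neuron markers 175, 175, 6.35 and 12.3 CPM. Astrocyte markers (10 genes) stood at 437, 439, 695 and 346 CPM, and oligodendrocyte markers (9 genes) at 68.1, 97.2, 85.7 and 68.7 CPM. For fibroblast markers (7 genes) the values were 12.2, 72.1, 15.9 and 22.1 CPM, and for endothelial markers (8 genes) 14.3, 19.7, 28.6 and 34.4 CPM. *Dcc*, *Sema6d* and *Robo1* were all counted at high levels in OPCs of replicate 1 (*Robo1* at 496.5 and 496.8 CPM). In microglia of replicate 1, *Dcc* and *Sema6d* were higher in the mutant and *Robo1* was lower. The part of RNA from other cells in these results was not tested.

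**Figure D5:**
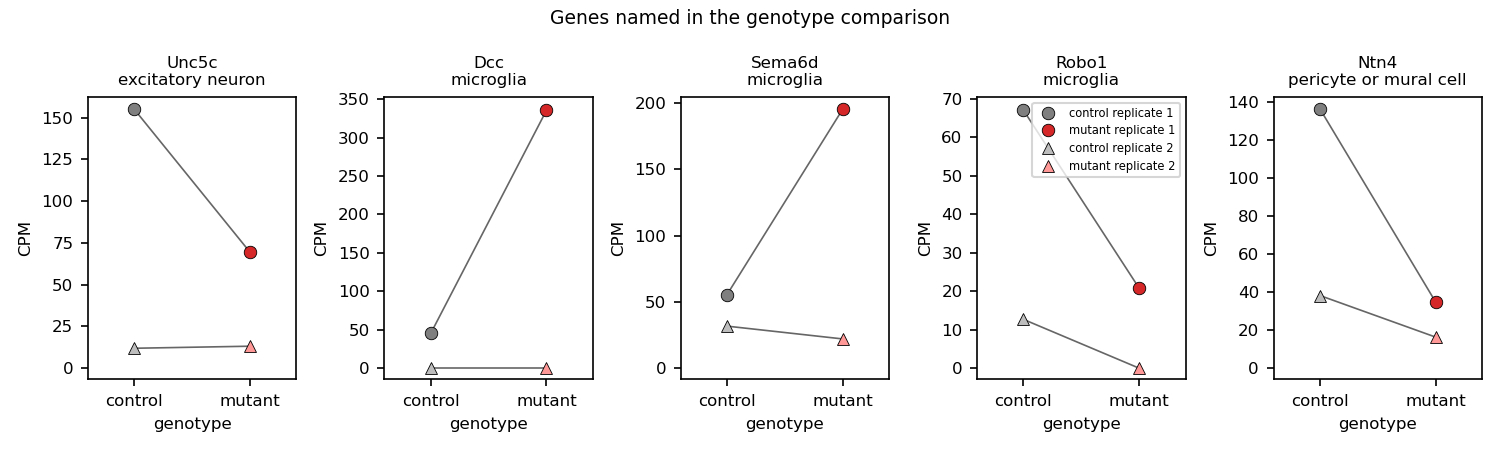
Levels of the 5 pairs of a gene and a class named in the genotype comparison. The y axis of each panel gives CPM, the x axis the genotype, circles are replicate 1, triangles are replicate 2, and a line joins control (gray) and mutant (red) of the same replicate. *Ntn4* and *Robo1* are lower in the mutant in both replicates, whereas *Unc5c*, *Dcc* and *Sema6d* differ mainly in replicate 1.

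Partners of the guidance receptors outside the selection were compared in the same way. Of 26 coreceptors, other ligands and adhesion partners, such as *Draxin*, *Neo1* and *Flrt3*, no pair with a class was called without the block, and 3 of 279 were called with the replicate block: *Cntn1* and *Dscam* in microglia and *Cntn1* in the unnamed cluster. Of all genes, 0.393% were called in microglia and 0.0736% of 12235 in the unnamed cluster. Both replicates moved by at least 0.5 in the same direction in 2 of 185 pairs of this group (1.08%), 1 higher and 1 lower in the mutant. Over the pairs of all genes the share was 0.206%. For 8 collapsin response mediators and Mical enzymes, which carry semaphorin signals to the cytoskeleton, none of 103 pairs was called with or without the block, and none of 79 pairs moved in this way in both replicates.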

How the data were processed

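Single-cell RNA sequencing was performed by the authors with 10x Genomics 3′ chemistry on 4 libraries. UMI counts by gene and cell barcode were deposited by the authors, aligned to mm10 with Cell Ranger (version 3.0 per the labels, 5.0.1 or 7.0.0 per the file headers). The version decides whether intronic reads are counted by default. These counts, not normalized, were the starting point. Matrices held 46274374 to 79328841 UMIs per library, and kept cells held 37355364 to 73584401.

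The filter on cells required 2000 to 40000 UMIs, 1000 or more genes and no more than 10% of UMIs from mitochondrial genes. Counts were then scaled within each library and clustered with scanpy 1.11.5 on 2000 variable genes, 30 principal components and 15 neighbours at resolution 1, leaving out the guidance genes. Names required at least 3 fixed markers found in 10% of the cells. Scrublet marked 2.42% and 2.79% of cells in replicate 1 but 0.202% and 0.64% in replicate 2, so doublets were removed only as an alternative. For each class, the UMIs of a library were added up, low genes were dropped (filterByExpr), TMM scaling was applied, and the quasi-likelihood test of edgeR 4.0.16 (R 4.3.3) was run with genotype as the only term and Benjamini-Hochberg adjustment within a class. Alternatives were DESeq2 1.42.0, other filters and clusterings, no scaling, a replicate block and leaving out each library. Scripts were tested on simulated data. Replicate numbers coincide with the software version and with the level of *Xist*, and deviations from the group means in same-numbered libraries correlated at r = 0.609 to 0.896 over the 14 classes, from only 2 pairs. P-values without the block are set against the spread between pooled libraries. With the replicate block, little of that spread is left to estimate per gene, and the test leans on spread estimated across genes. This holds most for *Dcc* in microglia, which had no counts in replicate 2.

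The intronic bases of a gene were taken from GENCODE vM21, where 99.6% of the genes were found. Whether the counting used strand is not given in the sources used here, so *Plxna4* and its opposite-strand transcripts may share reads. Levels are not compared between genes. The genes named with values are, per family, up to 4 members with the largest ratio of the highest class to the median of the others among those with the same highest class in all libraries, genotype pairs called within both replicates, and *Chd8*. Others were named after their values were seen, and some genes and 1 gene list are not reported here. The members, lists and markers were chosen with earlier results of these data known.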

Additional observations from a re-analysis of the deposited data

How the results depend on the processing

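The count of members with the same highest class in all libraries was 30 of 49. It was 24 of 52 at resolution 2, 27 of 52 with the guidance genes kept for clustering and 26 of 51 with doublets removed. At a mitochondrial limit of 5% it was 20 of 35, and with the mean of each cell's own CPM it was 27 of 48. The highest class was the one reported for 39, 47, 46, 28 and 45 members in these settings in turn. With the libraries weighted equally (30 of 49), an alternative chosen after seeing the data, it was the one reported for 43. Without 1 library, the count was 31 of 54 (control replicate 1), 30 of 51 (mutant replicate 1), 32 of 51 (control replicate 2) and 33 of 49 (mutant replicate 2). Agreement was then asked only of the libraries that remained, an easier rule. The share over all genes was not counted in these alternatives. The count of genotype calls among members was 0 with DESeq2, without scaling, with at least 10 counts in every library, under each other clustering and without any 1 library (0 to 0). It was 4 of 661 with the replicate block (*Unc5c*, *Sema6d*, *Robo1* and *Dcc*), against 0.0645% of the pairs of all genes. Without a filter on low counts it was 1 of 985, *Dcc* in microglia. In that setting 19 of 18176 genes were called in microglia, and genes outside the selection were called in several other classes. The cause was not tested. The count of pairs beyond 0.5 in both replicates was 1 of 385 (0.206% over all genes). It was 0 of 225 (0.111%) with at least 50 UMIs in every library, where *Ntn4* no longer had enough. It was 2 of 347 at resolution 2 (0.22%) and 2 of 350 with doublets removed (0.229%), in both cases *Ntn4* in pericytes and *Robo1* in excitatory neurons. At a mitochondrial limit of 5% it was 2 of 217 (0.325%), *Ntn4* and *Sema6d* in pericytes. With the guidance genes kept for clustering it was 3 of 359 (0.199%), *Ntn4* in pericytes, and *Robo1* and *Robo2* in excitatory neurons. These *Robo1* and *Robo2* calls rest on 20 to 39 UMIs in the libraries of replicate 2. Both genes were higher in cluster 3 than in cluster 2 in replicate 1. In the main clustering, cluster 3 made up 45.4% (control) and 29.1% (mutant) of excitatory neurons in replicate 1, and 12.4% and 9.65% in replicate 2. The part of cluster shares in these calls was not tested. The *Ntn4* counts of 31 to 79 UMIs and the low counts of long genes in replicate 2 limit what can be seen.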
